A study of Mus musculus with 4 samples.

Results

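The WAVE regulatory complex was followed through the cell classes of the mouse hippocampus, in wild-type mice and in mice that carried a missense allele of one of its subunits. The members were the 10 subunit genes Cyfip1, Cyfip2, Nckap1, Nckap1l, Wasf1, Wasf2, Wasf3, Abi1, Abi2 and Brk1, taken by gene symbol, and all 10 were found once among the 32285 genes of the single-nucleus RNA-seq count tables. The nuclei came from frozen hippocampi of both sides of the brain, from littermates on the C57BL/6N background at the age of 28 postnatal weeks. The 2 wild-type (WT) mice carried no targeted allele, and the 2 knock-in (KI) mice were Cyfip2+/R87C, that is, heterozygous for an allele of Cyfip2 in which arginine 87 is replaced by cysteine. Each mouse gave 1 library, and both groups carried the same batch label. The treatment label of KI replicate 2 reads R88C, whereas that of KI replicate 1 and the protocol read R87C. The counts are per gene, so the WT and R87C transcripts of Cyfip2 could not be told apart.

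The WAVE regulatory complex links the small GTPase Rac to the Arp2/3 complex, which nucleates branched actin filaments at the cell's leading edge and in dendritic spines. A WASF (WAVE) protein carries the end that activates Arp2/3, and it is held inactive by a CYFIP protein and a NCKAP protein until active Rac binds to CYFIP. An ABI protein joins the WASF protein to the rest of the assembly, and Brk1, a small helical protein also called HSPC300, is shared by all forms of the complex. Apart from Brk1, each place in the assembly can be filled by paralogues, so which subunits a cell uses depends on which of these genes it transcribes.

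The codon that the allele alters is shown first, since it separates the 2 CYFIP genes at the level of the coding sequence while leaving the arginine in place. In the GRCm38 assembly with the GENCODE M21 annotation, codon 87 of Cyfip2 lies on chromosome 11 at 46286091 to 46286093, on the minus strand, in exon 4 of 31. Codon 87 of Cyfip1 lies on chromosome 7 at 55873497 to 55873499, on the plus strand, in exon 4 of 31. These positions are those of the transcripts Cyfip2-201 and Cyfip1-201, each with a coding sequence of 3759 bases. All 3 Cyfip2 transcripts that were read and 4 of 5 Cyfip1 transcripts hold the codon shown, whereas codon 87 of Cyfip1-212 lies elsewhere. The reference sequence around the codon, read 5′ to 3′ on the coding strand with codon 87 in capitals, is:
Cyfip2: ctgtacacctggCGCagctgctcccgg
Cyfip1: ctgtacacctggAGGagctgctcccgg
Both capitalised codons encode arginine, and the 12 bases on either side are identical between the genes. The sequences are those of the reference genome, not reads of the KI libraries.

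The members are spread over 9 chromosomes. Cyfip2 spans 119010 bp and is the longest, and Brk1 spans 12180 bp and is the shortest (chromosome 6, 113604772 to 113616951). Some share their locus with other genes. Cyfip2 (chromosome 11, 46193850 to 46312859) encloses Fndc9, which lies on the opposite strand and was counted at 140 CPM over all nuclei, where CPM is the UMI count (molecules counted once by their tag) per 1000000 UMIs of the nuclei summed. Cyfip1 overlaps Nipa2 on the opposite strand by 1316 bp, and Brk1 overlaps Gm44200 on its own strand by 4053 bp, where Gm44200 was counted at 0.214 CPM. Reads within these overlaps may be uncertain.

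The 4 libraries held 73009975 to 80913580 UMIs in 12665 to 16055 barcodes, and 11932 to 14927 nuclei per library were kept, at a median of 3868 to 4699 UMIs each. Between 40 and 67 barcodes were shared by any 2 libraries. Clustering without the members' counts, and naming clusters from marker lists, gave 13 classes with at least 20 nuclei in every library. The hippocampal classes were present with their markers, including 12286 DG (dentate gyrus) granule neurons, 7342 CA1 and 3924 CA3 pyramidal neurons. A further 11341 nuclei (21.8%) were left unnamed, with 2266 and 2303 in the WT libraries against 2497 and 4275 in the KI libraries. They include clusters with markers of endothelial cells (99 nuclei) and of choroid plexus epithelium (401), so these cell types have no place in the orders below. Larger unnamed clusters were nearest to CA1 neurons (2874 nuclei) and to mossy cells (2442), or had markers of both oligodendrocytes and microglia (2359). The cluster nearest to mossy cells held 84 and 601 WT nuclei against 458 and 1299 KI nuclei. The WT and KI libraries filled different clusters of the DG granule class: 94.7% and 94.3% of it lay in one cluster in the WT libraries, whereas 91.8% and 73.0% lay in another in the KI libraries. The share of UMIs taken by the nuclear RNA Malat1 was 8.90% and 8.71% in the WT libraries against 13.7% and 12.2% in the KI libraries, and it was higher in both KI libraries in all 13 classes.

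**Figure D1:**
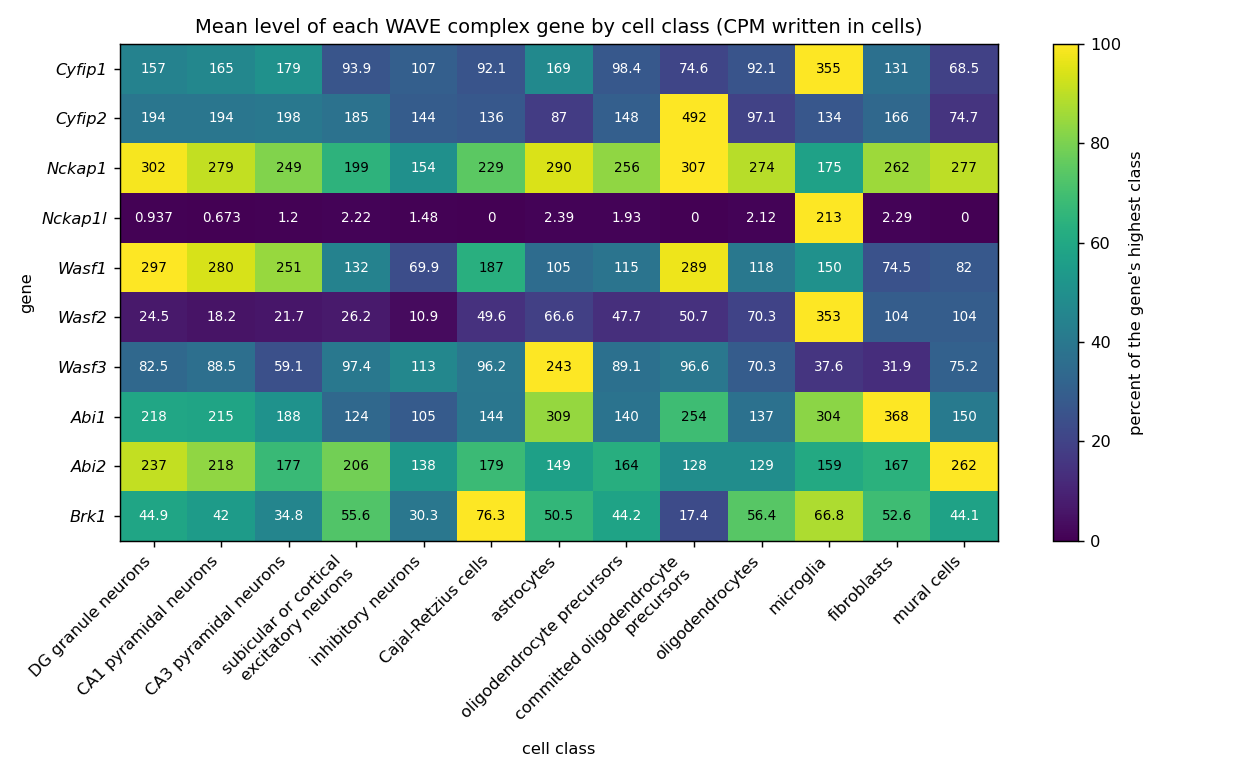
Heat map of the 10 members (rows) in 13 cell classes (columns): the number in a cell is the mean CPM of the class over the 4 libraries, and the colour is that mean as a percent of the gene's own highest class. Cyfip1, Nckap1l and Wasf2 peak in microglia, Cyfip2 in committed oligodendrocyte precursors and Wasf3 in astrocytes, whereas Nckap1 and Abi2 are filled along most of the row.

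Levels were taken as the sum of UMIs per library and class, as CPM of that class. They are compared here between classes for one gene at a time, without a test, and classes next to each other in the order are called apart only where the ranges over the 4 libraries did not overlap.

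The CYFIP genes encode the subunit that binds Rac, and their highest classes differed. Cyfip1 was highest in microglia, the resident macrophages of the brain, at 376 and 349 CPM in the WT libraries against 381 and 314 CPM in the KI libraries. All 4 microglial values lay above every value of the next class, CA3 pyramidal neurons (mean 179 CPM), and the neighbours below it, namely astrocytes (169), CA1 (165) and DG granule neurons (157), overlapped one another. Inhibitory neurons were lower, at a mean of 107 CPM, and committed oligodendrocyte precursors had a mean of 74.6 CPM. Cyfip2 was highest in committed oligodendrocyte precursors, cells on their way from dividing precursors to oligodendrocytes, at 570 and 647 CPM in the WT libraries against 276 and 474 CPM in the KI libraries. These values rest on 113 nuclei and 164 UMIs and are widely spread (492 ± 160, SD, n = 4), yet all of them lay above the next class. The cluster of these nuclei had a median doublet score of 0.0993, against 0.00998 in oligodendrocyte precursors, and the mean was 493 CPM over 112 nuclei with a lower allowed score. With a marker gate on single nuclei in place of clusters, which took in 577 nuclei, the mean was 230 CPM. The main neurons followed closely behind each other and overlapped: the mean of Cyfip2 was 198 CPM in CA3, 194 in DG granule, 194 in CA1 and 185 CPM in subicular or cortical excitatory neurons. Inhibitory neurons had 144 CPM, and astrocytes had 103 and 74.4 CPM in the WT libraries against 80.3 and 90.0 CPM in the KI libraries. Oligodendrocytes (97.1 CPM) were apart from microglia (134 CPM) above them and overlapped astrocytes.

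**Figure D2:**
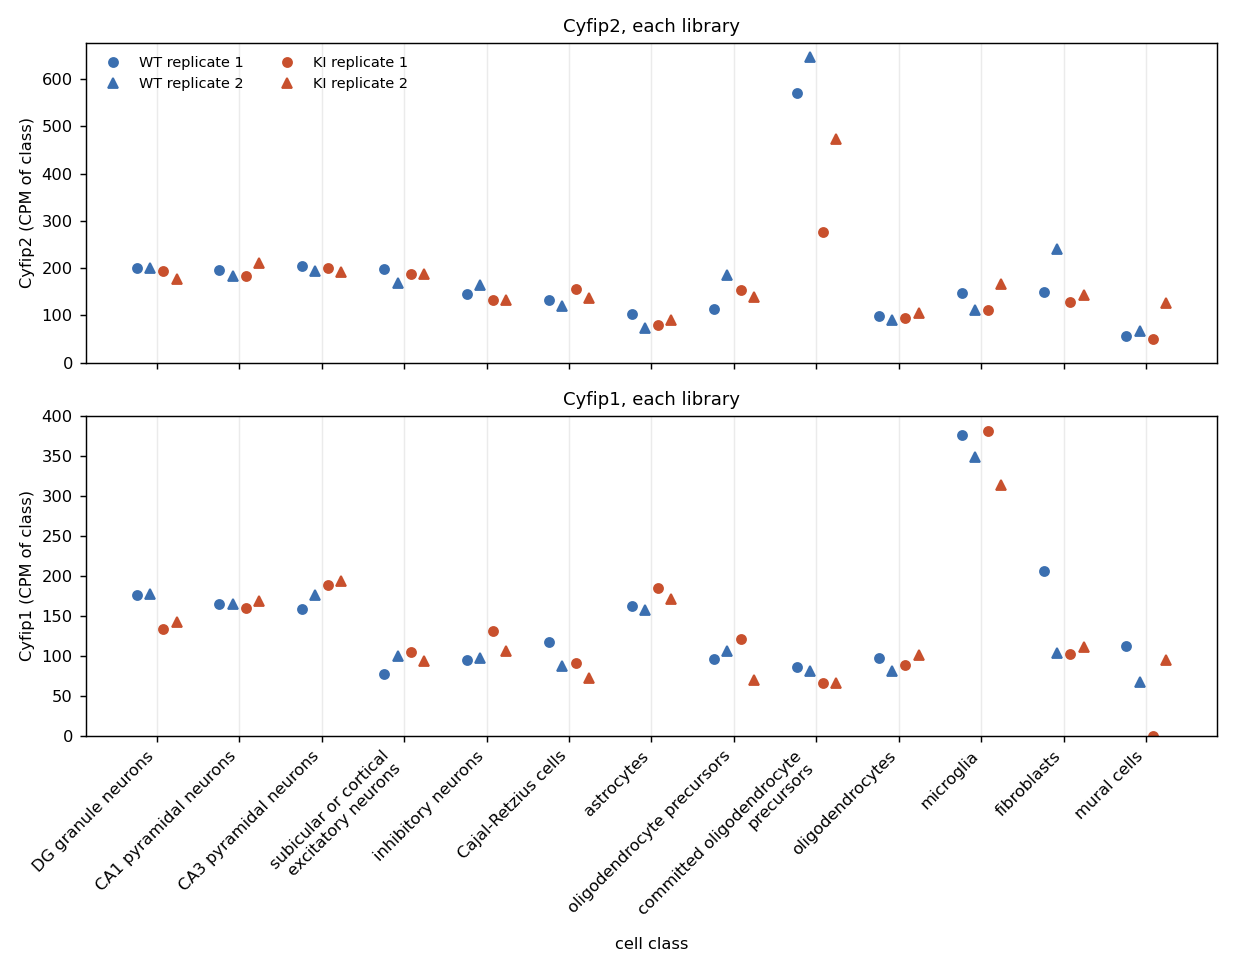
CPM of Cyfip2 (first panel) and Cyfip1 (second panel) in each of the 4 libraries by cell class, with blue points for WT, red for KI, circles for replicate 1 and triangles for replicate 2. Cyfip2 stands highest in committed oligodendrocyte precursors, with 276 to 647 CPM, and Cyfip1 in microglia, with 314 to 381 CPM, and the Cyfip2 points of both genotypes lie close together in CA1 and CA3 neurons.

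The NCKAP genes encode the partner that forms a stable pair with CYFIP. Nckap1 was the most evenly spread member by the ratio of 1.99 between its highest and lowest class means. It had 352 and 333 CPM in WT against 249 and 276 CPM in KI DG granule neurons, where the groups did not overlap, and it was lowest in inhibitory neurons (168 and 149 CPM in WT, 150 and 149 CPM in KI). Nckap1l, known as HEM1 and as the form of blood cells, had 185 and 233 CPM in WT against 277 and 155 CPM in KI microglia. The highest mean outside microglia was 2.39 CPM, in astrocytes, which is 88.8 times lower. No UMI of Nckap1l was found in Cajal-Retzius cells, committed oligodendrocyte precursors or mural cells. In microglia 29.7% and 31.7% of WT nuclei and 30.9% and 26.8% of KI nuclei held a UMI of it, at a median of 1228 to 1379.5 UMIs a nucleus. In DG granule neurons, which are not blood-derived and were deeper at a median of 3735 to 4404 UMIs, the share was 0.152% to 0.606%. In the other neurons with deep nuclei it reached 2.87%, in KI replicate 1 of the subicular or cortical excitatory class. Where these UMIs in neurons come from was not tested.

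The WASF genes encode the subunit that activates Arp2/3, and their orders over the classes differed. Wasf1 was high in the principal neurons and in committed oligodendrocyte precursors (mean 289 CPM), which overlapped. It had 319 and 328 CPM in WT against 234 and 308 CPM in KI DG granule neurons, with means of 280 CPM in CA1 and 251 CPM in CA3. It was lowest in inhibitory neurons, at 70.6 and 80.5 CPM in WT against 57.6 and 70.7 CPM in KI, a ratio of 4.25 between the highest and lowest class means. Wasf2, the widely expressed form outside the nervous system, had another order, with 304 and 349 CPM in WT against 455 and 302 CPM in KI microglia, apart from every other class. Mural cells and fibroblasts followed at 104 CPM each, and the lowest means were those of neurons other than Cajal-Retzius cells (49.6 CPM), with 24.5 CPM in DG granule, 18.2 CPM in CA1 and 10.9 CPM in inhibitory neurons, a ratio of 32.4 between the highest and the lowest mean. Wasf3 was highest in astrocytes, at 193 and 263 CPM in WT against 307 and 207 CPM in KI, 2.16 times the mean of the next class, inhibitory neurons (113 CPM). The astrocyte values did not overlap those of inhibitory neurons, and microglia had a mean of 37.6 CPM.

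Abi1 and Abi2 encode the adaptors that bind the WASF subunit. Abi1 had means of 368 CPM in fibroblasts, 309 CPM in astrocytes and 304 CPM in microglia, which overlapped, and it was lowest in inhibitory neurons (105 CPM). The fibroblast mean was drawn up by KI replicate 1, at 627 CPM against 261, 278 and 304 CPM in the other libraries. Abi2 had a ratio of 2.04 between its highest class mean, in mural cells (262 CPM on 37 UMIs), and its lowest, in committed oligodendrocyte precursors (128 CPM on 43 UMIs). Among the large classes it was high in DG granule (237 CPM), CA1 (218 CPM) and subicular or cortical excitatory neurons (206 CPM). Brk1 was low in every class, with means of 17.4 to 76.3 CPM, and every neighbour in its order overlapped the next. Its order and the Nckap1l values in neurons rest on few counts, and levels of different genes were not compared, since longer genes give more nuclear reads.

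**Figure D3:**
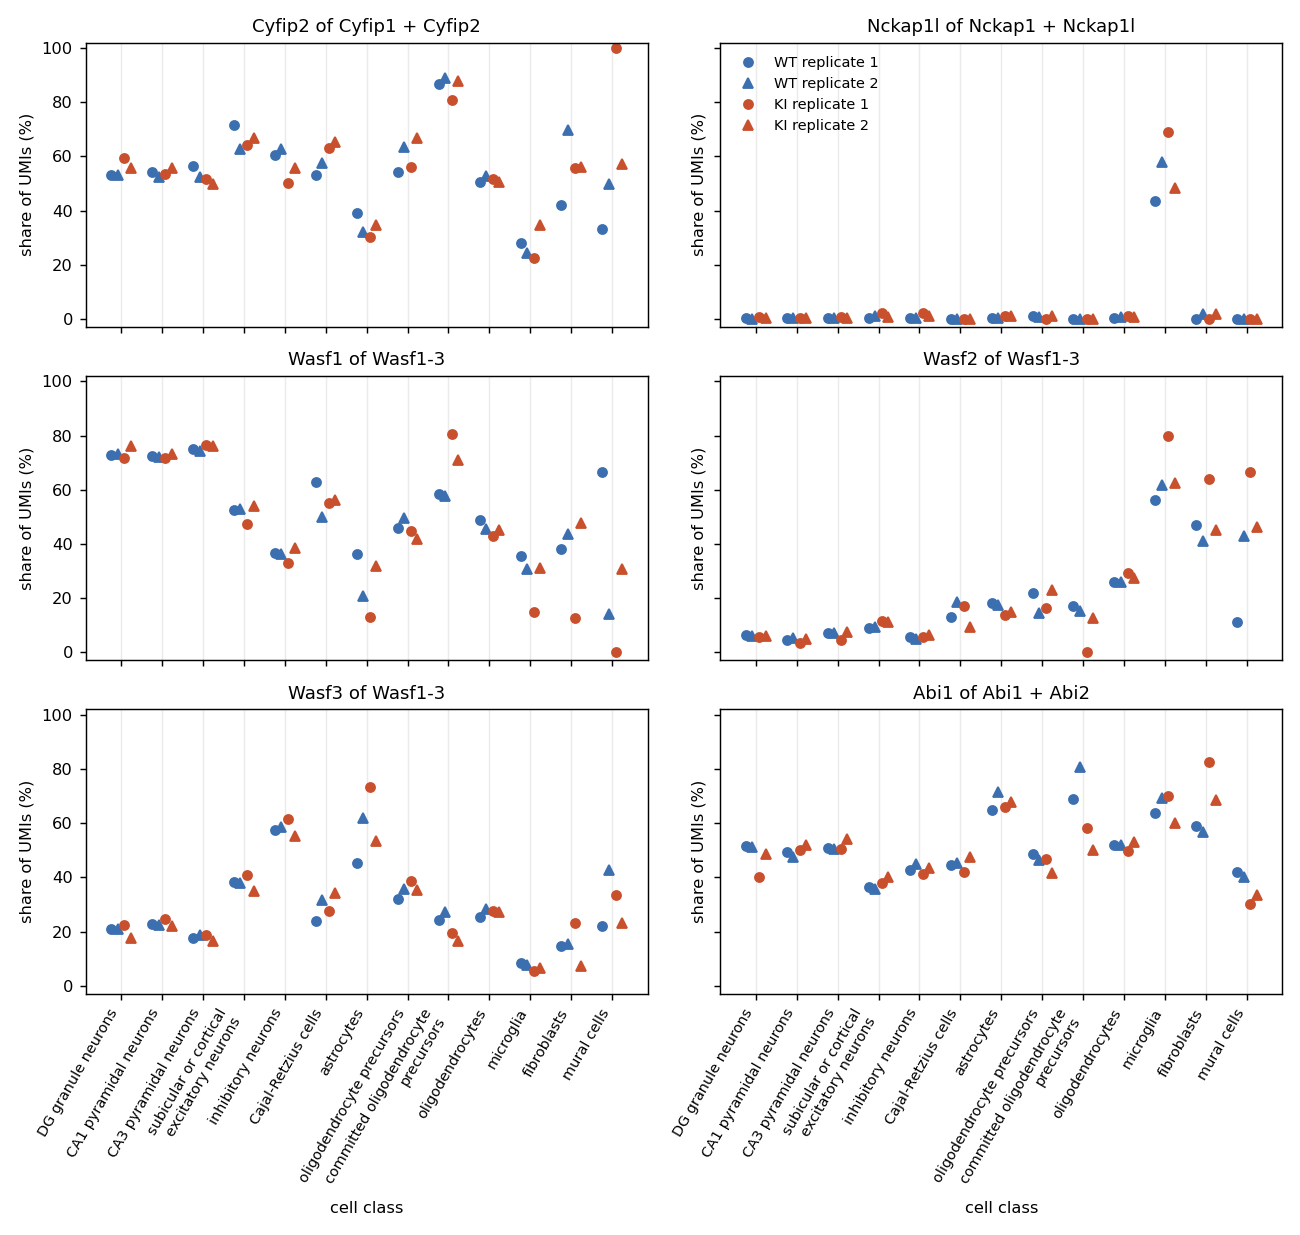
Share (%) of the UMIs of a paralogue group that came from the named gene, in each library and class, in 6 panels: Cyfip2 of the CYFIP genes, Nckap1l of the NCKAP genes, Wasf1, Wasf2 and Wasf3 of the WASF genes, and Abi1 of the ABI genes. Microglia stand out with a low Cyfip2 share (mean 27.4%) and high shares of Nckap1l (54.6%) and Wasf2 (65.0%), and astrocytes with a high Wasf3 share (58.5%).

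Paralogues that fill the same place were set against each other as a share of their summed UMIs, which cancels the depth of a library. The lengths of the genes do not cancel, so a share is compared between classes and not with an even split. Cyfip2 gave 86.8% and 88.9% of the CYFIP UMIs in WT and 80.8% and 87.9% in KI committed oligodendrocyte precursors. In the principal neurons its share had means of 55.3% in DG granule, 54.0% in CA1 and 52.5% in CA3 neurons, and 57.4% in inhibitory neurons. It was lower in astrocytes (39.0%, 32.2%, 30.3% and 34.5% in WT replicates 1 and 2 and KI replicates 1 and 2) and in microglia (28%, 24.3%, 22.5% and 34.7%). These glial values all lay below the lowest value of the CA1 libraries, 52.5%.

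For the WASF genes, the shares shifted between classes. Wasf1 gave 75.6% of the WASF UMIs in CA3, 73.5% in DG granule and 72.4% in CA1 neurons. Wasf3 gave 58.5% in astrocytes and, at 57.5%, 58.7%, 61.7% and 55.1% over the 4 libraries, 58.2% in inhibitory neurons. Wasf2 gave 56.1% and 61.6% in WT and 79.8% and 62.5% in KI microglia, against 4.67% in CA1 neurons. The Wasf1 share was 36.1% in the inhibitory class. For the NCKAP genes, Nckap1l gave 43.5% and 57.9% in WT and 69.0% and 48.2% in KI microglia and at most 1.13% on average in any other class. Abi1 gave 67.6% of the ABI UMIs in astrocytes and 65.8% in microglia against 47.9% in DG granule and 37.5% in subicular or cortical excitatory neurons. With 2 libraries a group, the exact two-sided permutation test of a share between genotypes cannot give a p below 0.33. The genotypes' Cyfip2 shares did not overlap in 5 of 13 classes, against 2 (Wasf3) to 6 (Abi1 and Wasf2) of 13 for the other shares. The Cyfip2 shares moved either way, by 4.29 percentage points (KI minus WT) in DG granule and −8.69 points in inhibitory neurons.

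The comparison of KI with WT asked whether the R87C allele went with a change in the transcripts of its own gene or of its complex. Over all nuclei, Cyfip2 had 182 and 180 CPM in the WT libraries against 172 and 171 CPM in the KI libraries. Both KI values lay below both WT values by a few percent, and edgeR's quasi-likelihood test gave −0.03 on the log2 scale (SE 0.08, adjusted p = 0.852). In sums over all nuclei, fewer nuclei of a class and less RNA per nucleus cannot be told apart. Within classes Cyfip2 was not called in any of the 12 in which it was tested. It had 196 and 182 CPM in WT against 184 and 212 CPM in KI CA1 neurons, where the groups overlapped (log2 fold change 0.16, SE 0.09, edgeR adjusted p = 0.315). In CA3 neurons it had 205 and 193 CPM in WT against 201 and 193 CPM in KI (0.06, SE 0.10, edgeR adjusted p = 0.764). In DG granule neurons it had 201 and 201 CPM in WT against 195 and 178 CPM in KI, and the fitted change was 0.03 (SE 0.10, edgeR adjusted p = 0.890). The DG value was −0.11 with library totals, under which the median gene of that class lay at −0.13 on the log2 scale, against 0.00 with TMM scaling, and its sign also turned under other settings. In inhibitory neurons it had 145 and 164 CPM in WT against 133 and 133 CPM in KI, with no overlap (−0.11, SE 0.10, edgeR adjusted p = 0.588). The widest fitted values were those of small classes and went both ways, with −0.62 (SE 0.41, edgeR adjusted p = 0.877) in committed oligodendrocyte precursors, −0.47 (SE 0.35, edgeR adjusted p = 0.895) in fibroblasts and 0.31 (SE 0.35, edgeR adjusted p = 0.945) in Cajal-Retzius cells.

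No member passed an adjusted p of 0.05 (the threshold for a call throughout) in the edgeR test over all nuclei, where all 10 were tested and 0.889% of all tested genes were called. Brk1 and Wasf1 had unadjusted p-values under 0.05 there, as did 24.3% of all tested genes, and DESeq2 called 1 member, Brk1, beside 9.21% of all genes. Across the 13 classes, 106 of the 130 pairs of member and class had enough counts to be tested. edgeR called 0 of these 106. Of them, 9 had an unadjusted p under 0.05, against 17.6% of all tested pairs of gene and class. DESeq2 called 1, Brk1 in CA1 neurons (adjusted p = 0.0398), where it called 8.07% of all genes. The calls among all tested genes give the background for these counts. It was 9.56% in DG granule, 7.58% in CA1, 2.29% in CA3 and 1.23% in inhibitory neurons. It was 0.796% in oligodendrocytes, 0.683% in oligodendrocyte precursors, 0.187% in astrocytes and 0.156% in subicular or cortical excitatory neurons. It was 0.221% in mural cells, 0.0638% in fibroblasts, 0.033% in Cajal-Retzius cells and 0.0% in microglia and in committed oligodendrocyte precursors. With at most 10 members tested in a class, a share of 0 among them lies near these backgrounds. The groups did not overlap for 9 of 10 members in DG granule, 7 of 10 in inhibitory, 5 of 10 in CA3 and 4 of 9 in CA1 neurons, against 63.8%, 55.7%, 54.7% and 60.4% of all tested genes in these classes. The p-values measure the spread between 2 mice a group.

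**Figure D4:**
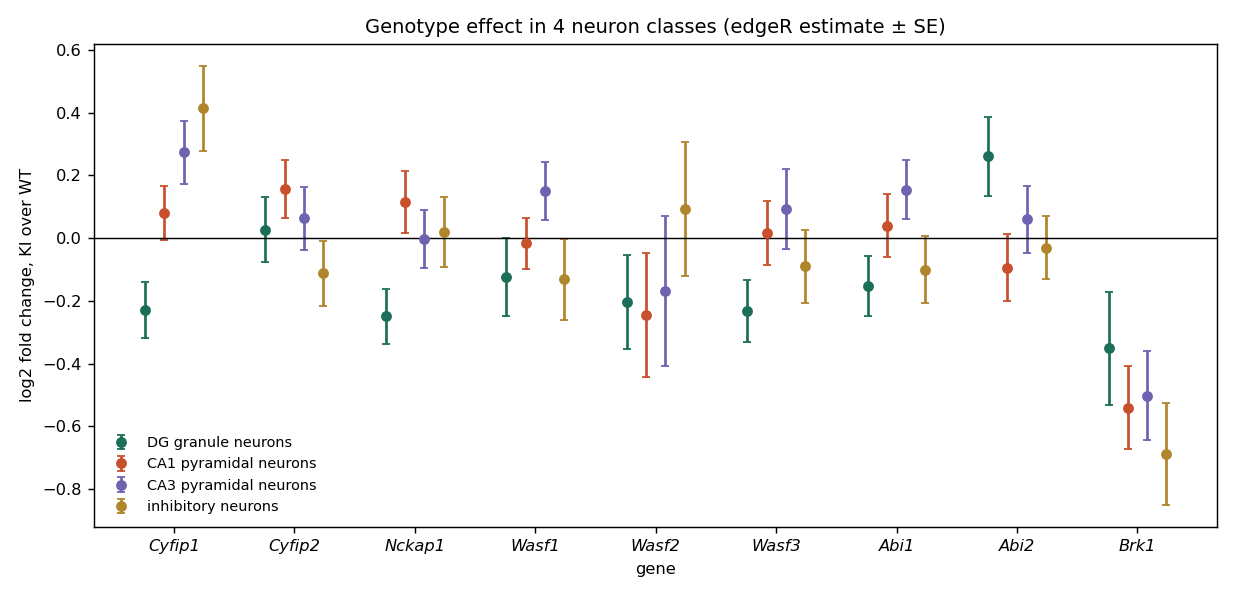
edgeR log2 fold change, KI over WT, with SE bars, for 9 members in DG granule, CA1, CA3 and inhibitory neurons; Nckap1l is left out for its few counts in neurons. Brk1 lies below 0 in all 4 classes (−0.35 to −0.69), Cyfip2 lies close to 0 (−0.11 to 0.16), and Cyfip1 lies on both sides (−0.23 in DG granule, 0.41 in inhibitory neurons).

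Of the 106 tested pairs of member and class, Brk1 in CA1 neurons had the lowest adjusted p. In CA1 neurons it had 51.4 and 50.5 CPM in WT against 28.8 and 37.3 CPM in KI, with a log2 fold change of −0.54 (SE 0.13, edgeR adjusted p = 0.0543). In inhibitory neurons it had 39.5 and 37.3 CPM in WT against 19.3 and 25.1 CPM in KI (−0.69, SE 0.16, edgeR adjusted p = 0.0769). In CA3 neurons it had 42.6 and 40.6 CPM in WT against 25.7 and 30.1 CPM in KI (−0.50, SE 0.14, edgeR adjusted p = 0.105). In each of these classes both KI libraries lay below both WT libraries, which was so for 37.2% of all tested genes in CA1, 37.5% in inhibitory, 34.5% in CA3 and 43.0% in DG granule neurons. DG granule neurons showed the same order for Brk1, with 49.6 and 54.9 CPM in WT against 30.2 and 44.9 CPM in KI (−0.35, SE 0.18, edgeR adjusted p = 0.25). Leaving out KI replicate 1 gave −0.11 in DG granule neurons, and leaving out KI replicate 2 gave −0.62. Within the main DG cluster of the WT libraries Brk1 had 49.5 and 54.6 CPM in WT against 26.3 and 39.2 CPM in KI, and within that of the KI libraries it had 50.5 and 60.6 CPM in WT against 30.5 and 47.1 CPM in KI. The order thus held within both clusters. Over all nuclei Brk1 had 48.9 and 48.4 CPM in WT against 28.2 and 36.5 CPM in KI (−0.54, SE 0.13, edgeR adjusted p = 0.0965). The fitted change was negative in all 9 classes in which Brk1 was tested, from −0.31 to −0.69, and the classes share their mice.

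The call for Brk1 turned on the setting. In CA1 neurons 5 of 12 alternatives called it, among them library totals (adjusted p = 0.0497 in edgeR) and leaving out KI replicate 1 (0.000803 in edgeR) or KI replicate 2 (7.82e-10 in edgeR), which called 25.0% and 43.5% of all tested genes, with log2 fold changes of −0.69 to −0.39 over the alternatives. Without either KI library the spread rests on the WT pair, which lay close together. Without WT replicate 1 or 2 the edgeR adjusted p was 0.350 and 0.271. Brk1 is the shortest member. Tested genes of up to 20000 bp had a median change on the log2 scale of −0.03 in CA1, −0.04 in inhibitory, −0.01 in CA3 and −0.01 in DG granule neurons, and the share of short genes with both KI libraries below both WT libraries was 34.9% in CA1. The Malat1 share moved with the genotype in the same classes, at 9.45% and 9.63% in WT against 15.1% and 13.1% in KI CA1 neurons, and its part in the Brk1 values was not tested.

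**Figure D5:**
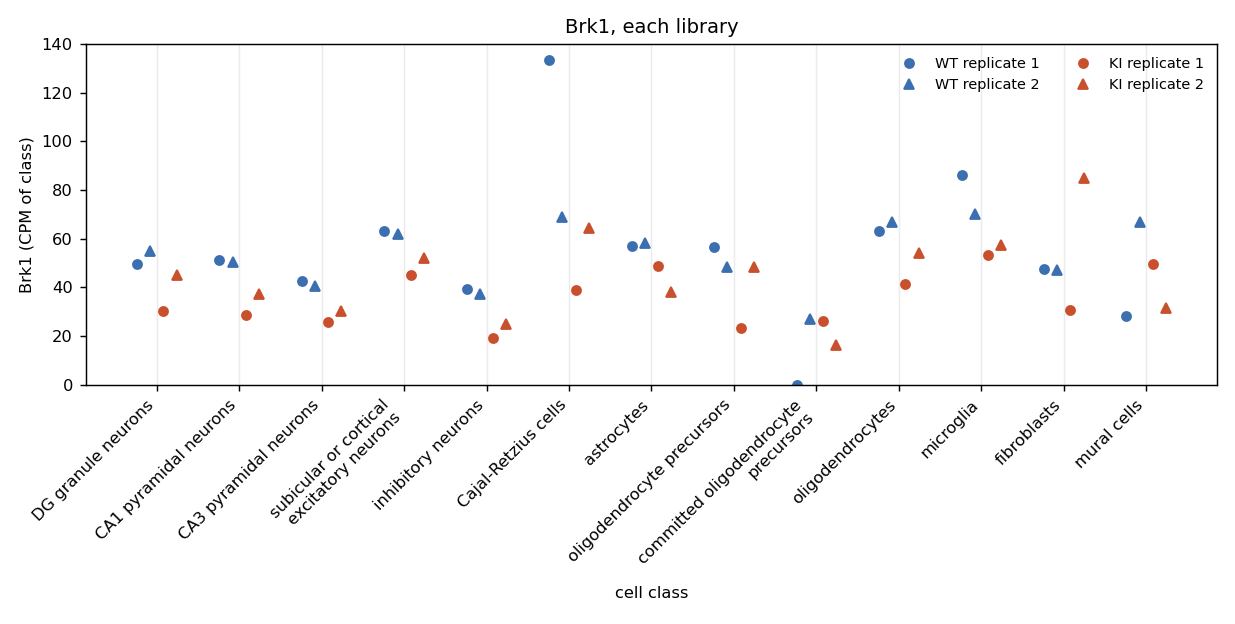
CPM of Brk1 in each library by cell class, with blue points for WT, red for KI, circles for replicate 1 and triangles for replicate 2. In DG granule, CA1, CA3 and inhibitory neurons both KI points lie below both WT points, with WT at 37.3 to 54.9 CPM and KI at 19.3 to 44.9 CPM, and the small classes are widely scattered.

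Among the other members, Cyfip1 took different values by class. It had 177 and 177 CPM in WT against 133 and 142 CPM in KI DG granule neurons (log2 fold change −0.23, SE 0.09, edgeR adjusted p = 0.15). It had 94.4 and 96.7 CPM in WT against 131 and 106 CPM in KI inhibitory neurons (0.41, SE 0.14, edgeR adjusted p = 0.152), where leaving out KI replicate 1 gave 0.22 and leaving out KI replicate 2 gave 0.59. In CA3 it had 159 and 176 CPM in WT against 189 and 193 CPM in KI (0.27, SE 0.10, edgeR adjusted p = 0.173), so the groups did not overlap in any of these classes, with the KI libraries lower in the first and higher in the other two. Nckap1 in DG granule neurons, with the values given above, had a log2 fold change of −0.25 (SE 0.09, edgeR adjusted p = 0.127). Wasf1 over all nuclei had 238 and 226 CPM in WT against 181 and 200 CPM in KI (−0.23, SE 0.08, edgeR adjusted p = 0.173). Abi1 in fibroblasts had a log2 fold change of 0.88 (SE 0.36, edgeR adjusted p = 0.671), which was 0.22 without KI replicate 1. In microglia, the class with the highest Cyfip1, Nckap1l and Wasf2, the log2 fold changes were −0.04 for Cyfip1, 0.08 for Nckap1l (SE 0.33, edgeR adjusted p = 0.987) and 0.24 for Wasf2 (SE 0.31, edgeR adjusted p = 0.947).

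Nckap1l in inhibitory neurons had 4 and 3 UMIs in the WT libraries and 22 and 13 UMIs in the KI libraries, that is, 0.664 and 0.502 CPM against 3.16 and 1.58 CPM (log2 fold change 2.07, SE 0.59, edgeR adjusted p = 0.116). The share of inhibitory nuclei with a UMI was 0.304% and 0.306% in WT and 2.35% and 1.02% in KI. Over the 4 libraries the share was 0.152% to 0.606% in DG granule, 0.342% to 0.473% in CA1, 0.734% to 1.47% in CA3 and 0.402% to 2.87% in subicular or cortical excitatory neurons. Of all the libraries of these classes, 1 exceeded the share in inhibitory neurons of KI replicate 1, and that was KI replicate 1 of the subicular or cortical excitatory class. Of a list of 10 markers of microglia, all 10 had UMIs in inhibitory neurons of each library. Their summed level was not higher in the KI libraries, at 148 and 154 CPM in WT against 133 and 143 CPM in KI, against 3592 to 5843 CPM in microglia.

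The change between genotypes was then compared between classes of the same mice, as the difference of the log2 fold changes of a pair of classes in edgeR with the library as a block. For DG granule neurons minus CA1 neurons, 3 of 10 members were called, against 14.1% of all tested genes. The fold change of Abi2 was higher in DG granule neurons by 0.36 (SE 0.09, edgeR adjusted p = 0.0152). Abi2 had 227 and 227 CPM in WT against 269 and 225 CPM in KI DG granule neurons, where the groups overlapped, and 236 and 229 CPM in WT against 213 and 194 CPM in KI CA1 neurons, where KI was lower in both. Nckap1 differed by −0.35 (SE 0.10, edgeR adjusted p = 0.0342), with 283 and 272 CPM in WT against 291 and 272 CPM in KI CA1 neurons beside the lower KI values in DG granule neurons. Cyfip1 differed by −0.30 (SE 0.09, edgeR adjusted p = 0.0388), with 165 and 165 CPM in WT against 159 and 168 CPM in KI CA1 neurons. For DG granule minus inhibitory neurons, Cyfip1 was the 1 member called of 10, at −0.64 (SE 0.13, edgeR adjusted p = 0.0107), against 7.84% of all tested genes. All 4 differences lost their call in edgeR when either WT library was left out (adjusted p of 0.101 to 0.369). The Nckap1 difference was −0.21 without KI replicate 1, and the Cyfip1 difference from inhibitory neurons was −0.42 without it, both still called. Cyfip2 was called in no pair, with a difference of −0.12 between DG granule and CA1 neurons (edgeR adjusted p = 0.522).

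No member was called in edgeR for the other 4 pairs of classes. Of 10 members, 2 had an unadjusted p under 0.05 for CA1 minus CA3, 1 for DG granule neurons minus oligodendrocytes and 1 for CA1 minus oligodendrocytes, where 15.4%, 15.2% and 13.0% of all tested genes had one and 3.86%, 2.81% and 2.08% were called. Of 9 members, 0 had one for astrocytes minus oligodendrocytes, where 9.48% of all tested genes had one and 0.691% were called. DESeq2 was not run for these differences.

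All 4 differences involve DG granule neurons, whose nuclei fell into different clusters by genotype. Within the main cluster of the WT libraries Nckap1 had 357 and 335 CPM in WT against 388 and 355 CPM in KI, and within that of the KI libraries it had 245 and 298 CPM in WT against 236 and 246 CPM in KI. Thus the lower KI values of Nckap1 over the whole class were not seen within the first cluster and overlapped WT in the second. Cyfip1 had 180 and 181 CPM in WT against 135 and 154 CPM in KI within the first cluster, and 121 and 111 CPM in WT against 133 and 137 CPM in KI within the second, so its order turned. Abi2 had 228 and 227 CPM in WT against 240 and 201 CPM in KI within the first cluster, and 210 and 230 CPM in WT against 272 and 235 CPM in KI within the second. The clusters were made from genes that differ between these nuclei, and the part of the split in the differences was not tested. CA1 nuclei also split by genotype at resolution 1.0. There an unnamed cluster nearest to CA1 by its markers held 884 and 670 KI nuclei against 32 and 30 WT nuclei. The cluster named CA1 held 729 and 1076 KI nuclei against 1920 and 1333 WT nuclei. The part of this CA1 split was not tested either.

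Lists covered the Arp2/3 complex, Rac GTPases and their regulators, other nucleation-promoting factors, actin turnover factors, and partners that bind or modify the WAVE complex. Together these 5 lists held 86 genes that act with the complex. edgeR called 12 of 84 of them in DG granule neurons (2 higher and 10 lower in KI), 6 of 84 in CA1 (5 higher, 1 lower), 1 of 84 in CA3 and 1 of 74 in oligodendrocyte precursors. In inhibitory neurons 0 of 84 were called by edgeR, and 9 had an unadjusted p under 0.05, against 19.8% of all tested genes. The shares of all tested genes called are those given above, so 12 of 84 in DG granule neurons stands beside 9.56%, and 6 of 84 in CA1 beside 7.58%. The lists had 20 calls over all classes, and 4 with either WT library left out.

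Of the partners that bind or modify the WAVE complex, 4 of 15 were called lower in KI DG granule neurons. Of all tested genes 9.56% were called there in either direction. The median log2 fold change of the list was −0.19 against 0.00 for all tested genes. Nhs, which encodes a protein with a WAVE homology domain, had 38.4 and 49.2 CPM in WT against 9.52 and 12.6 CPM in KI (log2 fold change −1.86, edgeR adjusted p = 0.00491). Its relatives Nhsl1 and Nhsl2 fell by 1.32 and 0.92 on the log2 scale (edgeR adjusted p = 0.00676 and 0.00575). Pcdh19, a protocadherin that can recruit the WAVE complex through its tail, had 153 and 153 CPM in WT against 40.2 and 74.0 CPM in KI (−1.30, edgeR adjusted p = 0.0262). None of the KI values of these genes overlapped those of WT, but the genes were picked by their calls in the same libraries. The groups did not overlap for 63.8% of all tested genes in this class.

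Of the Rac GTPases and their regulators, 4 of 27 were called in DG granule neurons, where 9.56% of all tested genes were called. Prex2, an exchange factor for Rac, had 119 and 132 CPM in WT against 49.95 and 61.0 CPM in KI (−1.05, edgeR adjusted p = 0.00700). Arhgap15, which encodes a GTPase-activating protein for Rac, fell by 0.66 (edgeR adjusted p = 0.0128), and Elmo2, a partner of DOCK exchange factors, fell by 0.49 (edgeR adjusted p = 0.0375), both on the log2 scale. Dock3, which activates Rac, rose by 0.62 (edgeR adjusted p = 0.0243). The list therefore held genes that activate and genes that switch off Rac, and its calls were 1 higher and 3 lower.

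In CA1 neurons 4 of 27 genes of the Rac list were called, where 7.58% of all tested genes were called. Elmo1 had 82.7 and 71.6 CPM in WT against 38.5 and 28.4 CPM in KI (−1.11, SE 0.19, edgeR adjusted p = 0.0202), whereas in oligodendrocyte precursors it had 287 and 305 CPM in WT against 564 and 475 CPM in KI (0.93, edgeR adjusted p = 0.0101). The difference between these classes was not tested. Srgap2, a GTPase-activating protein for Rac, had 218 and 220 CPM in WT against 285 and 304 CPM in KI CA1 neurons (0.52, edgeR adjusted p = 0.0170) and 357 and 348 CPM in WT against 451 and 482 CPM in KI CA3 neurons (0.48, edgeR adjusted p = 0.0369). Vav2, an exchange factor, rose from 2.23 and 3.05 CPM to 5.94 and 6.81 CPM in CA1 (edgeR adjusted p = 0.0305), and Abr rose by 0.37 (edgeR adjusted p = 0.0438). With clusters at a finer resolution, the CA1 values were 0.19 for Srgap2, 0.66 for Vav2 and −0.64 for Elmo1 (edgeR adjusted p = 0.292, 0.312 and 0.0788), so these 3 calls were lost. With the marker gate Elmo1 was −0.73 and called. At the finer resolution an unnamed cluster nearest to CA1 by its markers held 884 and 670 KI nuclei against 32 and 30 WT nuclei. The part of this split in the CA1 values was not tested.

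The remaining lists held genes of the actin machinery itself. Of the Arp2/3 subunits 1 of 10 was called in DG granule neurons, where 9.56% of all tested genes were called. It was Arpc2, with 203 and 194 CPM in WT against 136 and 136 CPM in KI (−0.41, edgeR adjusted p = 0.0449). Of the turnover genes 2 of 21 were called there, Cfl2, a cofilin that severs filaments, which rose by 0.70 (edgeR adjusted p = 0.0175), and Coro2b, a coronin, which fell by 0.48 (edgeR adjusted p = 0.0434). Of the other nucleation-promoting factors and their partners, Wipf2 fell by 0.46 in DG granule neurons (edgeR adjusted p = 0.0496), and Wipf3 and Washc2 rose by 0.47 and 0.50 in CA1 neurons (edgeR adjusted p = 0.0225 and 0.0418). With clusters at a finer resolution the CA1 value of Washc2 was 0.37 (edgeR adjusted p = 0.106), so its call was lost. Wipf3 was still called there (0.52, edgeR adjusted p = 0.0186). These lists were not tested as sets.

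The genes most like Cyfip2 and Cyfip1 across classes were sought by Pearson's r of log2(CPM + 1) over the 13 class means, among 10628 genes. The classes share their libraries and differ in depth, so r is a description. For Cyfip2 the first 5 were D630045J12Rik (r = 0.970), Fndc9 (0.914), Mical3 (0.891), Panx1 (0.863) and Gm43915 (0.860), all of them highest in committed oligodendrocyte precursors. Fndc9 lies within Cyfip2 and may share its reads. For Cyfip1 they were Nckipsd (0.868), Gtf2h2 (0.857), Gnaq (0.848), Myo1f (0.846) and Pfkfb3 (0.843), all highest in microglia. Among the members themselves, r was 0.772 for Cyfip1 with Nckap1l, 0.642 for Cyfip2 with Wasf1 and 0.608 for Nckap1l with Wasf2. It was −0.648 for Cyfip2 with Brk1 and −0.05 for the pair of CYFIP genes. In committed oligodendrocyte precursors, where Cyfip2 was highest, Brk1 was lowest, at 17.4 CPM on 5 UMIs. The r of Cyfip2 with Brk1 was not taken without that class.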

How the data were processed

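Per the file headers and the submitters' processing notes, the authors made the deposited UMI counts per gene and barcode with Cell Ranger 7.0.1 and mm10. The study then excluded low-quality nuclei and possible contaminants in Seurat, and its quality controls also removed doublets. The deposited tables were taken as they stand, before the filters given next. The thresholds of the study's own steps are not given in the sources used here. Positions and sequences are from GRCm38 with GENCODE M21. Nuclei with at least 500 genes, at most 5% mitochondrial UMIs and a Scrublet doublet score of at most 0.25 (expected rate 0.08) were kept. The 2000 most variable genes, without the members, gave 30 principal components, 20 neighbours and Leiden clusters at resolution 0.5, with subclusters at 0.3 (scanpy 1.11.5, leidenalg 0.10.2). Clusters were named from 17 marker lists where at least 3 markers were raised 2-fold and these made up 65% of the list, or 50% where a marker was among the 10 leading genes, with a median fold of at least 2 and no more leading markers of another class. Clusters with a second class at 90% of its markers or a median doublet score over 0.15 stayed unnamed, and this naming rule was set after the clusters had been seen. Classes needed 20 nuclei in every library.

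UMI counts summed per library and class were tested with edgeR 4.0.16 (quasi-likelihood, TMM, filterByExpr, R 4.3.3) over all genes, with Benjamini-Hochberg adjustment. SEs were derived from the fold change and its F statistic. Alternatives were DESeq2 1.42.0, library totals, no low-count filter, the replicate number as a block, each library left out, clusters at resolution 1.0, a marker gate on single nuclei, 1000 genes and a doublet score of 0.15. Levels under the last 4 settings, a crossed block in microglia and leaving out libraries for the lists and for differences between classes were chosen after seeing the data. The members and lists were chosen with earlier results of these data known. Named were all members, list genes called (at most 4 per list and class) and the 5 genes most like each CYFIP gene. Counts cover nuclear RNA, in which introns and long genes weigh more.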

Additional observations from a re-analysis of the deposited data

Results flagged for a closer look

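The KI effect on 3 members differed between classes of the same mice by a test of the difference itself. For DG granule neurons minus CA1 neurons, the log2 fold changes differed by 0.36 for Abi2, −0.35 for Nckap1 and −0.3 for Cyfip1, with 14.1% of all tested genes called. For DG granule minus inhibitory neurons, the difference was −0.64 for Cyfip1, with 7.84% called. With marker gates on single nuclei in place of clusters, the differences of Abi2 between DG granule and CA1 neurons and of Cyfip1 between DG granule and inhibitory neurons were still called, whereas those of Nckap1 (−0.25, edgeR adjusted p = 0.215) and Cyfip1 (−0.26, edgeR adjusted p = 0.140) between DG granule and CA1 neurons were not. Without either WT library none of the 4 was called in edgeR (adjusted p of 0.101 to 0.369). Within the DG granule clusters the KI values of Nckap1 were not lower in the cluster that held most WT nuclei, and the order of WT and KI for Cyfip1 turned between clusters.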

How the results depend on the processing

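The count of members called over all nuclei, 0 in edgeR, was 1 with DESeq2 and 1 with the replicate block, and 0 to 3 when a library was left out (1 without KI replicate 1, 3 without KI replicate 2). Within classes it was 1 with DESeq2, 1 with library totals, 3 with no low-count filter, 2 with the replicate block, and 0 to 21 when a library was left out (9 without KI replicate 1, 21 without KI replicate 2, 0 without either WT library). Of all pairs of gene and class, 2.30% were called with DESeq2, 3.06% with library totals, 3.47% with no low-count filter, 6.33% with the replicate block, 9.41% without KI replicate 1 and 22.0% without KI replicate 2. Of all genes over all nuclei, 9.21% were called with DESeq2, 9.0% with the replicate block, 4.91% without KI replicate 1 and 32.4% without KI replicate 2. Where 1 library is left in a group, it is assumed to vary like the other group. The count stayed at 0 under 1000 genes, resolution 1.0, the marker gate and a doublet score of 0.15. The differences between classes that were called fell from 4 to 2 with the marker gate and were 0 to 11 when a library was left out (0 without either WT library, 5 without KI replicate 1, 11 without KI replicate 2). The calls in the partner lists, 20, were 13 with the marker gate, 34 with the replicate block and 4 to 182 when a library was left out (4 without either WT library, 90 without KI replicate 1, 182 without KI replicate 2).

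The replicate numbers did not pair the samples: same-numbered libraries deviated with a correlation of −0.178 to 0.0767 over the 13 classes and all nuclei. With the crossed block in microglia, 61 of 8042 genes and 0 members were called.

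With the marker gate, the mean CPM in microglia was 273 for Cyfip1, 145 for Nckap1l and 262 for Wasf2, and in committed oligodendrocyte precursors it was 230 for Cyfip2, whose share was 65.9%. A doublet score of 0.15 gave 394 CPM for Cyfip1 in microglia, and resolution 1.0 gave a Wasf1 share of 71.4% in CA1 neurons. The gate took in 577 nuclei as committed oligodendrocyte precursors and 1630 as microglia.

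Log2 fold changes of members turned sign in 118 of 1357 fits under other settings, among them 22 of Wasf3, 18 of Nckap1, 16 of Cyfip2 and 0 of Brk1. Cyfip2 was called in no class by the main edgeR fit. In CA1 neurons, where its sign did not turn, 1 of 12 alternatives called it. With library totals its turned values were −0.016 in CA3, −0.11 in DG granule neurons and −0.022 in oligodendrocyte precursors. Cyfip2 was −0.0066 in DG granule neurons with no low-count filter and −0.0021 in oligodendrocytes with 1000 genes. In astrocytes it was 0.0025 with a doublet score of 0.15 and 0.0038 with the replicate block. With a library left out, the value ranged from −0.0030 (without KI replicate 1) to 0.12 (without KI replicate 2) in CA3, from −0.077 (without KI replicate 1) to 0.12 (without KI replicate 2) in DG granule neurons, from −0.22 (without WT replicate 2) to 0.20 (without WT replicate 1) in astrocytes, from −0.29 (without KI replicate 2) to 0.45 (without KI replicate 1) in microglia, from −0.22 (without WT replicate 1) to 0.50 (without WT replicate 2) in oligodendrocyte precursors and from −0.028 (without WT replicate 2) to 0.20 (without WT replicate 1) in subicular or cortical excitatory neurons. The cause was not tested. Of the other single-gene values in the report that were followed, 276 kept their side of the threshold, 20 passed it and 22 lost it.

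Over all genes, the calls over all nuclei were 193 in edgeR and 1850 with DESeq2, and in DG granule neurons they were 1566, or 3354 with no low-count filter, 2842 with the replicate block and 7966 without KI replicate 2. Counts under 20 UMIs limit the members in the small classes.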
